A study of Mus musculus with 16 samples.

Results

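Axon guidance genes encode the ligands and receptors that steer growing nerve fibres and, in other tissues, position blood vessels, neural crest cells and stromal cells. On the mouse arrays used here, 68 of 17710 named genes belonged to these families by symbol: semaphorins, plexins, ephrins, Eph receptors, Robo receptors, Slits, netrins and the genes whose symbol begins with Unc5. Symbols were matched without regard to upper or lower case, and a gene with several probes was represented by the probe with the highest mean deposited value. Unc50 and Unc5cl matched by spelling only and are not netrin receptors, and both are kept in the count of 68.

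All cells came from C57BL/6 mice whose genotype is given as normal, and 16 arrays covered 6 cell groups. From the heart came c-kit sorted cells, c-kit being the receptor of stem cell factor (3 arrays), cells sorted as Sca1+CD45-CD31- (3 arrays, called Sca1 cells here), side population cells selected by efflux of a Hoechst dye (2 arrays) and cardiomyocytes collected by slow centrifugation (2 arrays). From bone marrow came cells sorted for c-kit (3 arrays) and mesenchymal stem cells harvested after 5 passages (MSC, 3 arrays). The labels give Matrigel and mTeSR as growth conditions for all groups alike, do not give the age of the mice or whether replicates came from separate animals, and p-values therefore measure only how far these arrays lie apart, which may be technical variation.

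Ligand and receptor pairs organise these families. Slits bind Robo receptors, netrins bind Unc5 receptors and the receptors Dcc and neogenin, semaphorins bind plexins, with neuropilins as coreceptors for most class 3 members, and ephrins bind Eph receptors on touching cells. In the heart and its vessels, Sema3c and Plxnd1 are known for their roles in outflow tract development, Efnb2 and Ephb4 for marking arterial and venous endothelium, and Robo4 and Unc5b for their expression in endothelium.

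Total RNA was amplified, labelled with Cy5 and hybridised in a single colour, 1 sample per array. Levels below are log2 intensities after quantile normalisation, on which the median over all genes was 0.70, the 25th percentile -2.26 and the 75th percentile 3.45. Levels are compared between groups within a gene and not between genes. Differences are log2 differences with their SE from a limma model of the 6 group means, and genes counted as called had a Benjamini-Hochberg adjusted p under 0.05 over all 17710 genes. Precision is limited by the number of arrays. Both side population arrays and heart c-kit replicate 2 had the lowest deposited medians, at -0.93 to -1.02 against -0.46 or more elsewhere. On at least 1 array, 24 members stood at the repeated low value that each array carried, called the fill value here. In such bulk samples, fewer cells of a type and less RNA per cell cannot be told apart.

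The labelled cell types were set against marker lists, whose mean log2 level is given per array. Cardiomyocyte markers (5 measured) averaged 7.38 and 7.45 in cardiomyocytes and at most 4.56 elsewhere. The same cardiomyocyte arrays also carried endothelial markers (10 measured, 6.65 and 7.06) and fibroblast markers (6 measured, 4.50 and 5.14). Smooth muscle and pericyte markers (5 measured) averaged 5.33 and 5.61 on them, against at most 4.58 elsewhere. Heart c-kit arrays carried endothelial markers at 5.23 to 6.03 and mast cell markers at 3.36 to 5.00, and MSC arrays carried leukocyte markers at 6.18 to 6.75. Of the endothelial list, Vwf alone was low in heart c-kit cells (-2.13, -1.12 and 1.55). In heart Sca1 cells, sorted without CD31, the endothelial mean was 0.99, 2.42 and 5.68 on replicates 1 to 3. Pecam1, which encodes CD31, read 1.57, 3.39 and 5.38. Tek was high on each of them (6.26, 5.98 and 6.50), whereas the rest of the list rose on replicate 3. The gene for Sca1 itself was not measured under its current symbol. Kit, which encodes c-kit, read 5.18 to 5.82 in marrow c-kit cells. In heart c-kit cells it read 2.13, 5.04 and 3.83, against at most 2.16 in the other groups, the highest being a cardiomyocyte array. Abcg2, another listed sort marker, had its lowest group mean in side population cells (0.59 and 4.41) and was not called (limma F-test adjusted p = 0.184).

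Guidance genes differed between the groups. The moderated F-test called 32 of 68 members (47.1%), against 31.9% of all genes tested. It or at least 1 of 8 comparisons called 38 members, a count whose share over all genes was not computed. Marrow c-kit cells were the group with the lowest mean for 31 members (45.6%), whereas they were lowest for 15.9% of all genes. Of the 32 members called by the F-test, 20 were lowest in marrow c-kit cells, and the matching share among all called genes was not computed. The highest mean fell in side population cells for 17 members, near their share of all genes (23.1%). It fell in cardiomyocytes for 15 members (22.1%, against 12.1% of all genes), in heart Sca1 cells for 14 (20.6%, against 12.7%), in MSC for 10 (14.7%, against 16.9%), in heart c-kit cells for 8 (11.8%, against 16.8%) and in marrow c-kit cells for 4 (5.88%, against 18.4%). The remaining 30 members were called in no test, and their group means spanned 1.01 to 5.34 log2 units from lowest to highest group.

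**Figure D1:**
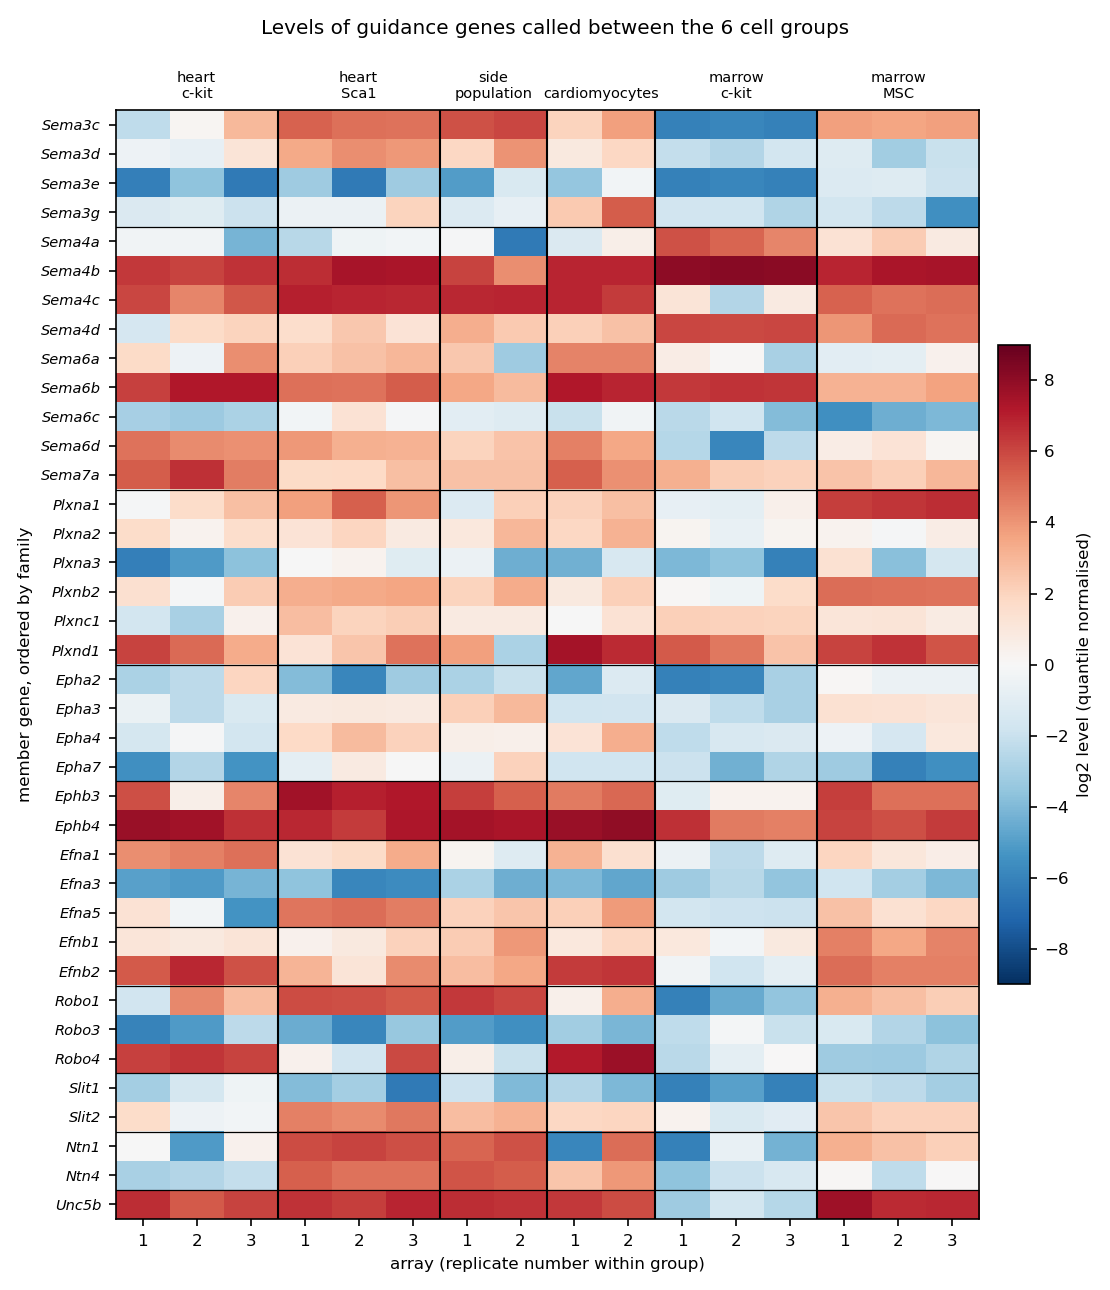
Log2 level of each of the 38 called members (rows, grouped by family) on each of the 16 arrays (columns, grouped by cell type), with colour from blue (low) to red (high). Rows are to be read along the arrays: Unc5b is high in every group except marrow c-kit cells, Robo4 is high in heart c-kit cells and cardiomyocytes, and Sema4a and Sema4d are highest in marrow c-kit cells.

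Between the 4 heart groups and the 2 marrow groups, each group weighted equally, 25 of 68 members were called (36.8%, against 21.6% of all genes). Of these, 20 were higher in heart cells, where 9.64% of all genes were called, and 5 were higher in marrow cells, where 12.0% were. The median difference over the 68 members was 0.54, against 0.03 over all genes. The largest called differences upward were those of Robo4, Sema6d, Robo1, Sema3c, Ntn4, Sema3d and Unc5b, and those higher in marrow were Sema4a, Sema4d, Robo3, Efna3 and Sema4b. For Unc5b, MSC had the highest mean of all groups (7.04), and marrow c-kit cells alone were below the heart groups. The MSC mean also lay within the range of the heart group means for Robo1 (2.70), Sema3c (3.64) and Ntn4 (-0.71). The same held for further members called higher in heart, among them Efnb2 (4.70) and Ephb3 (5.36). For most of the 25 called members, heart and marrow arrays overlapped. For Robo4, side population replicate 2 (-2.03) and heart Sca1 replicate 2 (-1.73) lay below marrow c-kit replicate 3 (0.05). For Sema3c, all 3 marrow c-kit arrays were at the fill value, so its size is uncertain.

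**Figure D2:**
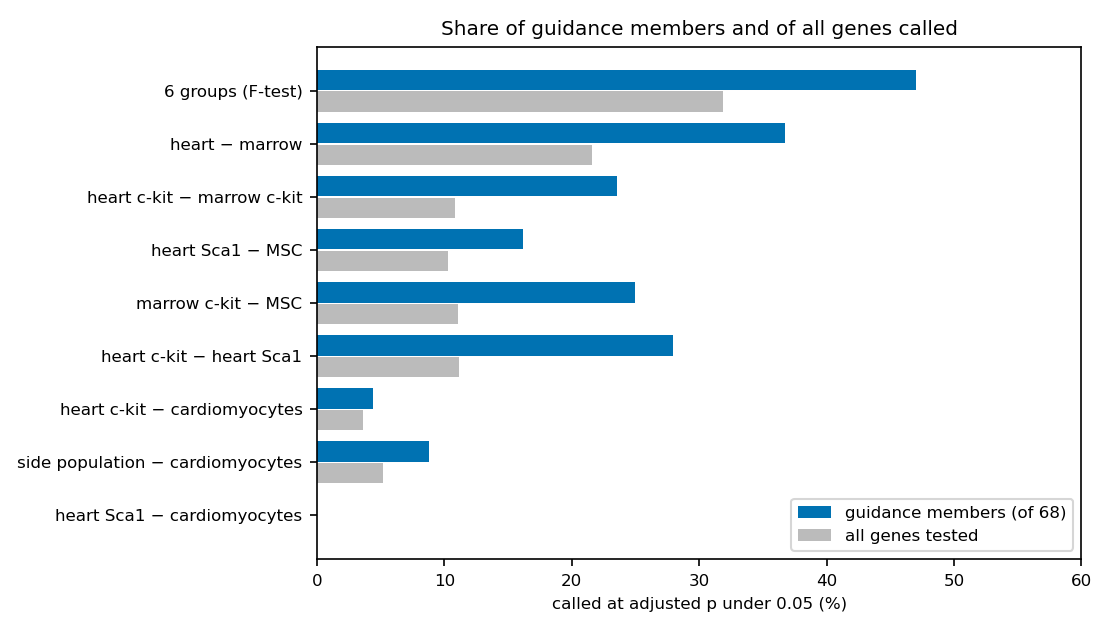
Share of the 68 guidance members (blue) and of all 17710 genes (grey) called at an adjusted p under 0.05, in percent, for the F-test over 6 groups and for 8 comparisons. The member bar is longer than the grey bar in every comparison except that of heart Sca1 cells with cardiomyocytes, where both are 0.

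Robo4, the Robo receptor of endothelial cells, was high in cardiomyocytes (7.16 and 7.67) and in heart c-kit cells (6.14, 6.43 and 6.06). It read -2.45, -0.89 and 0.05 in marrow c-kit cells and -3.21, -3.24 and -2.68 in MSC, so the arrays of these groups did not overlap with the former. Side population cells read 0.52 and -2.03. Heart Sca1 cells were split, with 0.40 and -1.73 on replicates 1 and 2 and 5.93 on replicate 3, the replicate on which the endothelial mean was also 5.68. Heart exceeded marrow by 5.67 ± 0.90 (limma adjusted p = 0.000436), heart c-kit cells exceeded marrow c-kit cells by 7.31 ± 1.42 (adjusted p = 0.0036), and both calls held under every alternative run. Side population cells were 8.17 ± 1.74 below cardiomyocytes on the log2 scale (limma adjusted p = 0.0181), a call lost without side population replicate 2 or either cardiomyocyte array (adjusted p up to 0.0938).

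Heart c-kit minus heart Sca1 cells gave a Robo4 difference of 4.68 ± 1.42 (limma adjusted p = 0.0484). Leaving out heart Sca1 replicate 3 gave 6.88 (adjusted p = 0.000757), while leaving out any 1 of 13 other arrays, that is any but the side population arrays, lost the call (adjusted p up to 0.181). Robo4 and the endothelial markers were high on the same arrays, and the part of endothelial cells in the Robo4 values was not tested.

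**Figure D3:**
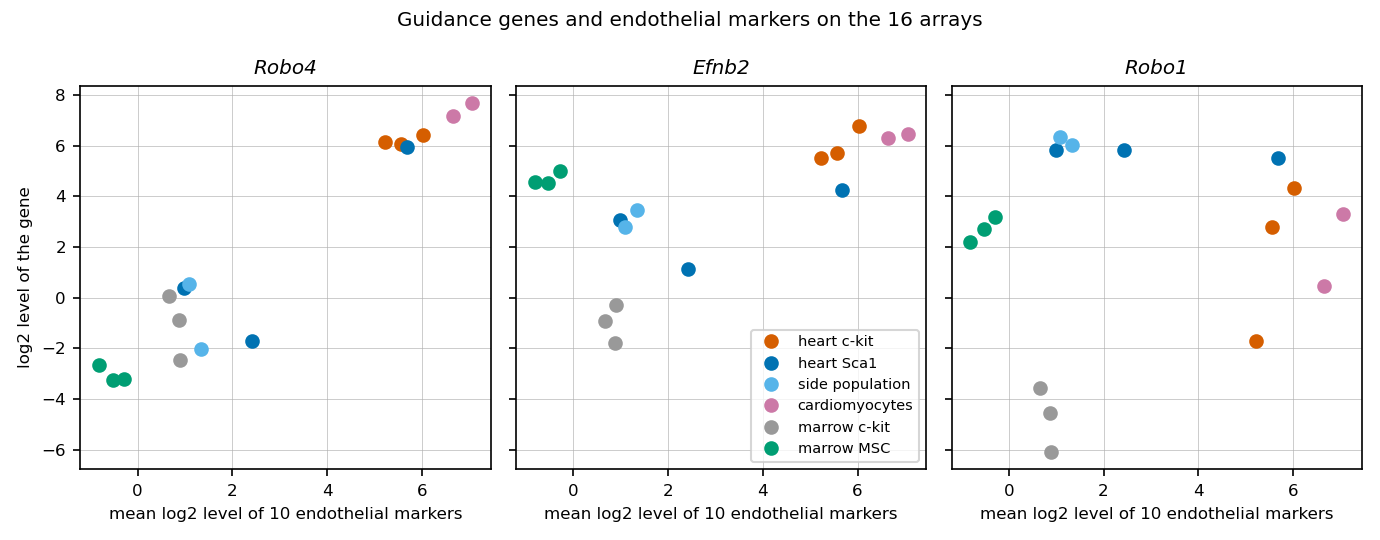
Log2 level of Robo4 (left), Efnb2 (middle) and Robo1 (right) on the 16 arrays against the mean log2 level of 10 endothelial markers on the same array, with 1 point per array coloured by cell group. Arrays with an endothelial mean above 5 have Robo4 levels of 5.93 to 7.67, among them heart Sca1 replicate 3, whereas Robo1 is high on all Sca1 and side population arrays, at endothelial means from 0.99 to 5.68.

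Robo1, the broadly expressed Slit receptor, had another pattern. Its highest levels were in side population cells (6.34 and 6.03) and heart Sca1 cells (5.84, 5.83 and 5.52), followed by MSC (3.19, 2.73 and 2.19). Cardiomyocytes read 0.46 and 3.29, heart c-kit cells -1.73, 4.33 and 2.78, and marrow c-kit cells -6.08, -4.57 and -3.56, the first of them at the fill value. Robo1 was lower in marrow c-kit cells than in MSC by 7.44 ± 1.23 (limma adjusted p = 0.00107) and than in heart c-kit cells by 6.53 ± 1.23 (adjusted p = 0.00286), the latter call being lost (adjusted p = 0.0515) when each array's low values were lifted to its 30th percentile. Against heart Sca1 cells, heart c-kit cells were 3.93 ± 1.23 lower, which missed the threshold (adjusted p = 0.0546).

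Of the other Robo genes, Robo2 had group means between 2.45 and 4.06 and was not called (limma F-test adjusted p = 0.36). Robo3, known from commissural neurons, lay low throughout and averaged -1.50 in c-kit cells of the marrow and -2.57 in MSC, against -5.28 to -3.61 in the heart groups. Its heart minus marrow difference of -2.45 ± 0.62 (limma adjusted p = 0.0113) rested on values near the floor, with 4 heart arrays at the fill value, and fell to -0.57 (adjusted p = 0.205) when low values were raised.

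Slit2, a secreted Robo ligand, was highest in heart Sca1 cells (4.55, 4.24 and 4.75), followed by side population cells (2.76 and 3.09), MSC (2.50, 2.09 and 2.09) and cardiomyocytes (1.87 and 1.96). Heart c-kit cells (1.64, -0.44 and -0.22) and marrow c-kit cells (between -1.38 and 0.29) were the lowest, and the arrays of these 2 groups overlapped. The excess of heart Sca1 over heart c-kit cells was 4.19, since heart c-kit minus heart Sca1 gave -4.19 ± 0.62 (limma adjusted p = 0.00068), and it held under every alternative. Against MSC, heart Sca1 cells were higher by 2.29 ± 0.62 (limma adjusted p = 0.0298), but this call was lost without any 1 of the 6 arrays compared (adjusted p up to 0.0988). Slit1 lay near the floor, with group means from -5.68 in marrow c-kit cells to -1.67 in heart c-kit cells, 2 of the 3 marrow c-kit arrays being at the fill value. Its difference between the c-kit groups of 4.01 ± 0.92 (limma adjusted p = 0.0108) became 0.89 (adjusted p = 0.157) when low values were raised. Slit3 was not called (limma F-test adjusted p = 0.403).

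Promoter sequences are shown for 3 members: Robo4 and Sema3g, which were both highest in cardiomyocytes, and Robo1, which was highest in side population cells. Each is the 250 bases before the annotated start in RefSeq on assembly GRCm38.p6, plus strand, Robo4 at chr9:37401722-37401971, Robo1 at chr16:72662899-72663148 and Sema3g at chr14:31217623-31217872. Capitals mark AGGAAG, which holds the core bases that ETS factors bind, and GGGCGGG, the GC box of Sp and KLF factors, on either strand.
Robo4: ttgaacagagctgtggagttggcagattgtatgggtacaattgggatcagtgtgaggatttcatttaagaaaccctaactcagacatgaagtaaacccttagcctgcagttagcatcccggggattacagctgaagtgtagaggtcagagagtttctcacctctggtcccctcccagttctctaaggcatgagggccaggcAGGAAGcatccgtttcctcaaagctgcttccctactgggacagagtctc
Robo1: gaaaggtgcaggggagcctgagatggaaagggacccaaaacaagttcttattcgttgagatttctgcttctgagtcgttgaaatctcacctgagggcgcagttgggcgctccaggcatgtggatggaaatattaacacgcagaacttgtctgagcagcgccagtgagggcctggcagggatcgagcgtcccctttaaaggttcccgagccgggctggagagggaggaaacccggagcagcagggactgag
Sema3g: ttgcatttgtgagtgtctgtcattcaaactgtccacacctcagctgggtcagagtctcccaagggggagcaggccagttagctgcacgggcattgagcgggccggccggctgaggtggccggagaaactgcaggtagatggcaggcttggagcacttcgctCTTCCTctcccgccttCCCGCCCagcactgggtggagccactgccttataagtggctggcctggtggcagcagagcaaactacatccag
Robo4 held AGGAAG and no GC box, Robo1 neither, and Sema3g both, each on the opposite strand. Of the 68 members, 59 had a promoter in the table. AGGAAG stood in 20 of them (33.9%), against 28.13% of 13980 genes with a promoter of the same length, and GGGCGGG in 34 (57.63%), against 35.62%. A further 8 motifs were searched on both strands. These were CCGGAAG for ETS factors, CACGTG for the E-box, TGACTCA for AP-1, TATAAA for the TATA box, AACAAT for SOX factors, CATTCCT for TEAD factors, and the forms TTATCA and also GATAAG for GATA factors, which can overlap on opposite strands. None of the 8 was in these 3 windows, and each stood in 1 to 3 member promoters. A pair of longer ETS forms was also looked at and is not given. A match is a description of letters, not a binding site.

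Unc5b, a netrin receptor of endothelium and other tissues, separated marrow c-kit cells from all other groups. It read -3.18, -1.66 and -2.57 there and between 5.49 and 7.63 on the other 13 arrays. Marrow c-kit cells lay below MSC by 9.51 ± 0.55 (limma adjusted p = 3e-07) and below heart c-kit cells by 8.56 ± 0.55 (adjusted p = 4.4e-07), and these calls held under every alternative. Its group means in the other 5 groups ran from 6.08 to 7.04. Of the other Unc5 receptors, Unc5c had means from 1.30 in marrow c-kit cells to 4.94 in heart Sca1 cells, and none of Unc5a, Unc5c and Unc5d was called (limma F-test adjusted p of 0.0675 to 0.27).

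Ntn4, a netrin of basement membranes, was high in side population cells (5.67 and 5.43) and heart Sca1 cells (5.40, 4.86 and 4.88) and intermediate in cardiomyocytes (2.48 and 3.92). Heart c-kit cells (-2.88, -2.64 and -2.14) and marrow c-kit cells (-3.65, -1.96 and -1.42) were low and overlapped, and MSC read 0.12, -2.30 and 0.04. Heart c-kit cells were below heart Sca1 cells by 7.60 ± 0.75 (limma adjusted p = 3.24e-05) and below cardiomyocytes by 5.75 ± 0.83 (adjusted p = 0.00194). The first held under every alternative, and the second was lost (adjusted p = 0.0974) when only the compared groups were fitted. Heart Sca1 cells exceeded MSC by 5.76 ± 0.75 (limma adjusted p = 0.000214).

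Ntn1, the secreted netrin first known from spinal cord axon guidance, read 5.88, 6.11 and 5.78 in Sca1 cells of the heart, 5.22 and 5.72 in the side population and 3.20, 2.63 and 2.13 in MSC. Both cardiomyocyte arrays differed widely (-5.89 and 5.05), as did heart c-kit arrays (-0.03, -5.10 and 0.40, the second at the fill value). Heart c-kit minus heart Sca1 cells was -7.50 ± 2.17 (limma adjusted p = 0.0397), a call lost without any 1 of 9 arrays, namely marrow c-kit replicate 3, the MSC arrays, heart c-kit replicates 1 and 2 and the Sca1 arrays (adjusted p up to 0.143). Ntn3 and Ntn5 were not called (limma F-test adjusted p of 0.665 and 0.626). Among the other netrin receptors, Dcc and Neo1, which encodes neogenin, were not called either (F-test adjusted p of 0.198 and 0.436). Rgma, a neogenin ligand, was high in heart Sca1 cells (7.60, 8.18 and 7.90) and lower in heart c-kit cells by 6.47 ± 0.96 (limma adjusted p = 0.00068).

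**Figure D4:**
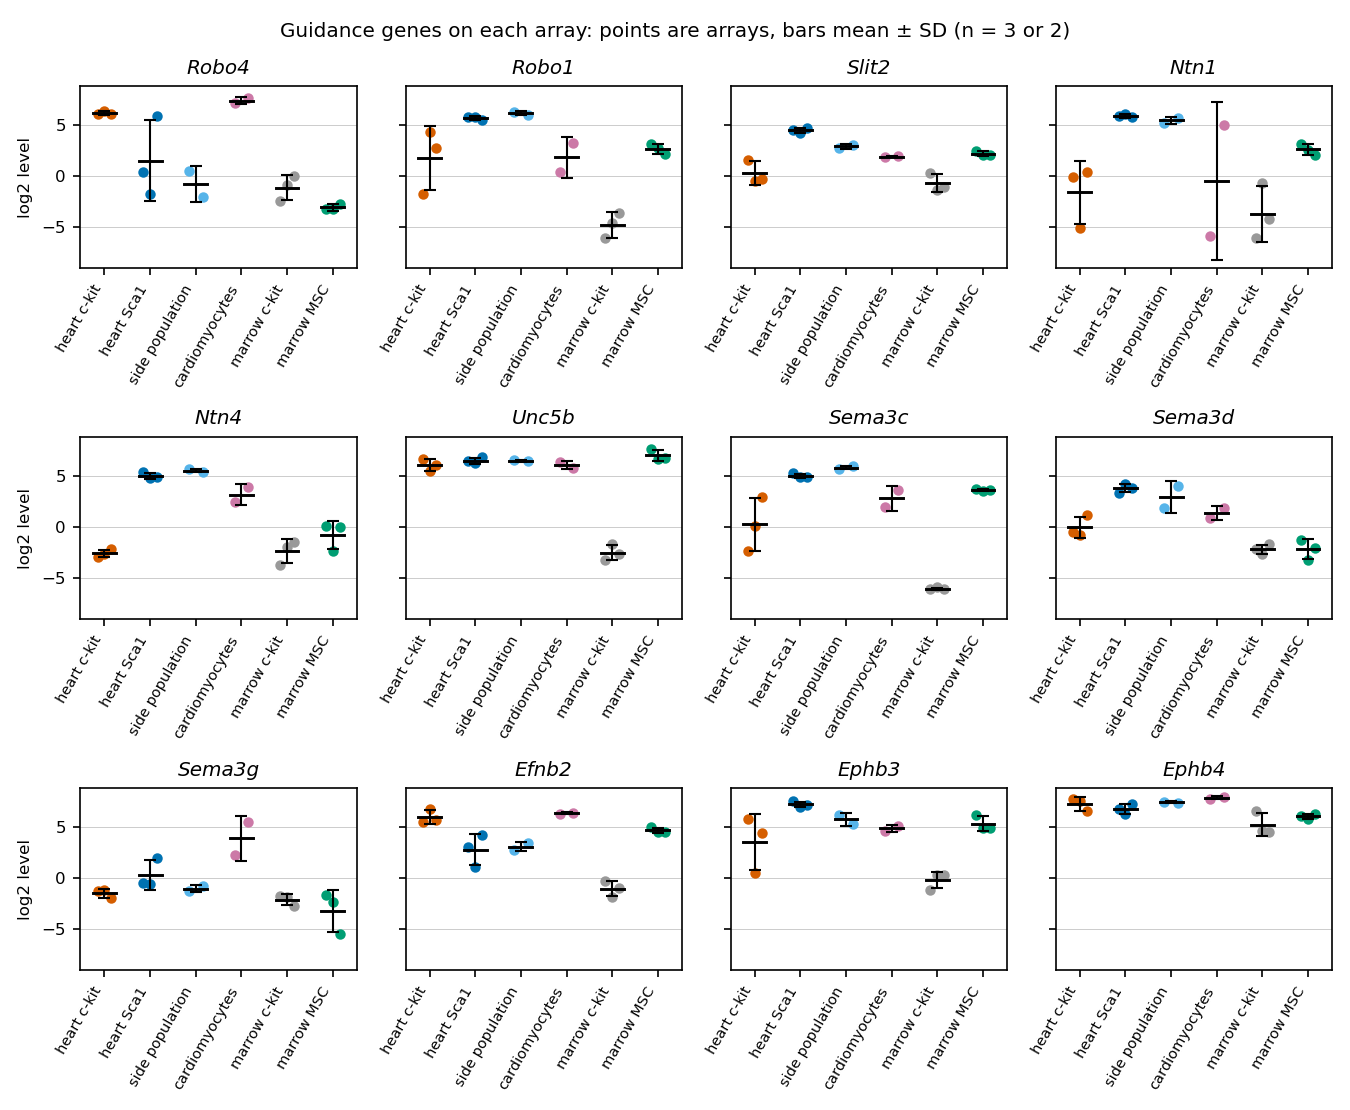
Log2 level of 12 guidance genes on each array (points), by cell group, with the group mean and SD (bars, n = 3, or n = 2 for side population cells and cardiomyocytes). Sca1 and side population cells are high for Robo1, Slit2, Ntn1, Ntn4, Sema3c and Sema3d, whereas Robo4 is high in heart c-kit cells and cardiomyocytes, and marrow c-kit cells are low for most genes shown.

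Class 3 semaphorins are secreted ligands, and 4 of 7 were called by the F-test (against 31.9% of all genes). Sema3c read 5.73 and 5.99 in side population cells, 5.29, 4.95 and 4.90 in heart Sca1 cells, 3.72, 3.53 and 3.68 in MSC, 1.98 and 3.68 in cardiomyocytes and -2.27, 0.18 and 2.94 in heart c-kit cells. All 3 marrow c-kit arrays were at the fill value, so the size of a difference from that group is uncertain, although MSC were called higher (limma adjusted p = 1.31e-05). Heart c-kit cells were below heart Sca1 cells by 4.77 ± 0.95 (adjusted p = 0.00551), a call lost (adjusted p = 0.0866) when only these groups were fitted.

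Sema3d, known from cardiac and neural crest development, was highest in heart Sca1 cells (3.39, 4.21 and 3.90), followed by side population cells (1.87 and 4.04), cardiomyocytes (0.89 and 1.87) and heart c-kit cells (-0.45, -0.71 and 1.19). Both marrow groups were below all heart arrays, at -2.16, -2.61 and -1.68 in c-kit cells and -1.19, -3.16 and -2.04 in MSC. Heart exceeded marrow by 4.19 ± 0.47 (limma adjusted p = 2.16e-05) and heart Sca1 cells exceeded MSC by 5.96 ± 0.73 (adjusted p = 0.000153), under every alternative. A second probe of Sema3d gave heart minus marrow as 4.11.

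Sema3g, known from endothelium and smooth muscle, was highest in cardiomyocytes, with a wide spread (2.33 and 5.48). Heart Sca1 cells read -0.50, -0.53 and 2.03, again highest on replicate 3, and heart c-kit cells -1.28, -1.12 and -1.97. Heart c-kit cells were below cardiomyocytes by 5.36 ± 1.16 (limma adjusted p = 0.0192). This call was lost without cardiomyocyte replicate 2, where the difference was -3.79. It was also lost with medians aligned, on the deposited values, with array weights and when only these groups were fitted. Side population cells were below cardiomyocytes by 4.91 ± 1.27 (limma adjusted p = 0.0404), lost without any 1 of 8 arrays: the marrow c-kit arrays, MSC replicate 2, heart Sca1 replicate 2, both side population arrays or cardiomyocyte replicate 2 (adjusted p up to 0.239). Sema3e, the ligand of Plxnd1, was at the fill value on all marrow c-kit arrays and read -1.25, -1.13 and -1.93 in MSC. Sema3a, Sema3b and Sema3f were not called.

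Membrane-bound semaphorins of classes 4 to 7 gave 8 of 13 members called by the F-test (against 31.9% of all genes), and here marrow c-kit cells stood at either end. Sema4a, an immune semaphorin, read 5.71, 5.25 and 4.43 in marrow c-kit cells and at most 2.27 elsewhere. Sema4d, also called CD100 and known from lymphocytes, read 6.02, 5.94 and 6.03 there, against -1.53, 1.74 and 2.01 in heart c-kit cells. Heart c-kit cells were lower by 6.74 ± 1.38 for Sema4a (limma adjusted p = 0.0053) and by 5.26 ± 0.80 for Sema4d (adjusted p = 0.000548), both under every alternative. Leukocyte markers averaged 4.13 to 5.45 on the marrow c-kit arrays and 1.27 to 2.81 on the heart c-kit arrays, and their part in these values was not tested.

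Sema4b had its highest level in marrow c-kit cells as well (8.02, 8.16 and 8.12, against 6.34, 6.07 and 6.53 in heart c-kit cells). Its difference of -1.79 ± 0.53 between the c-kit groups (limma adjusted p = 0.0459) was lost without any 1 of 14 arrays, that is any but the side population arrays (adjusted p up to 0.132), and with medians aligned (-0.64, adjusted p = 0.725).

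In the opposite direction, Sema6d, a transmembrane ligand of Plxna1 in the developing heart, read 4.92, 4.26 and 4.13 in heart c-kit cells and -2.60, -5.89 and -2.32 in marrow c-kit cells, replicate 2 of the latter at the fill value. The difference was 8.04 ± 0.80 (limma adjusted p = 1.48e-05) and held under every alternative. Sema4c, a ligand of Plxnb2, read 5.98, 4.37 and 5.58 in heart c-kit cells and 1.17, -2.61 and 0.80 in marrow c-kit cells, and between 4.90 and 7.01 in the remaining groups. Marrow c-kit cells were below heart c-kit cells by 5.52 for Sema4c, with heart minus marrow c-kit at 5.52 ± 0.82 (limma adjusted p = 0.000446).

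Sema7a, a membrane-anchored ligand of Plxnc1 and integrins, was high in heart c-kit cells (5.45, 6.55 and 4.62) and cardiomyocytes (5.35 and 4.10), and lower in heart Sca1 cells (1.73, 1.77 and 2.70). Heart c-kit exceeded heart Sca1 cells by 3.47 ± 0.61 (limma adjusted p = 0.00256) under every alternative. Its heart minus marrow difference of 1.22 ± 0.39 (limma adjusted p = 0.0384) was lost without any 1 of 7 arrays: marrow c-kit replicates 2 and 3, the MSC arrays, heart Sca1 replicate 3 or cardiomyocyte replicate 1 (adjusted p up to 0.0991).

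Sema6b was high in cardiomyocytes (7.23 and 6.85), heart c-kit cells (6.12, 7.19 and 7.19) and marrow c-kit cells (6.39, 6.52 and 6.46), and lower in side population cells (3.45 and 2.81) and MSC (3.14, 3.15 and 3.62). Side population cells were below cardiomyocytes by 3.91 ± 0.59 (limma adjusted p = 0.00263). This difference depended on the scaling, at -1.22 (adjusted p = 0.547) with medians aligned. Sema6c lay above MSC in heart Sca1 cells by 4.97 ± 0.69 (limma adjusted p = 0.000393), with levels of -0.25, 1.30 and -0.08 against -5.50, -4.41 and -4.02. Sema6a was highest in cardiomyocytes (4.45 and 4.50). Its heart minus marrow difference of 2.72 ± 0.87 (limma adjusted p = 0.0385) was lost without any 1 of 12 arrays (adjusted p up to 0.115), that is any but marrow c-kit replicate 1, heart c-kit replicates 2 and 3 and side population replicate 2.

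Plexins are the semaphorin receptors, and 4 of 9 were called by the F-test (against 31.9% of all genes). Plxna1 was highest in MSC (6.22, 6.42 and 6.62), followed by heart Sca1 cells (between 3.71 and 5.36), and read -0.75, -0.91 and 0.43 in marrow c-kit cells. Plxnb2 followed the same order at its ends, with 5.05, 4.96 and 4.85 in MSC, 3.29, 3.40 and 3.55 in heart Sca1 cells and 0.10, -0.41 and 1.68 in marrow c-kit cells. Marrow c-kit cells were below MSC by 6.83 ± 0.89 for Plxna1 (limma adjusted p = 0.000157) and by 4.50 ± 0.71 for Plxnb2 (adjusted p = 0.00076), under every alternative. For Plxna1 the probes disagreed on heart c-kit against Sca1 cells: the probe used gave -2.94 ± 0.89 (limma adjusted p = 0.0489) and the other probe 1.69. That call was also lost without any 1 of 13 arrays, that is any but heart c-kit replicate 3 and the side population arrays (adjusted p up to 0.164).

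Plxnc1 was low in heart c-kit cells (-1.64, -2.95 and 0.42) and higher in heart Sca1 cells (2.81, 1.99 and 2.21) and marrow c-kit cells (2.12, 2.06 and 2.02). Heart c-kit minus heart Sca1 was -3.73 ± 0.72 (limma adjusted p = 0.00435) and heart c-kit minus marrow c-kit -3.46 ± 0.72 (adjusted p = 0.00566). These calls were lost (adjusted p of 0.0753 and 0.0712) when only the compared groups were fitted, and the second also with medians aligned (adjusted p = 0.0616). The second probe gave -5.69 and -5.82 for these differences.

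Plxnd1, the endothelial plexin that binds Sema3e, was highest in cardiomyocytes (7.49 and 6.75) and read 6.06, 5.07 and 3.34 in heart c-kit cells. MSC read 6.10, 6.50 and 5.65, with an endothelial marker mean below 0, and marrow c-kit cells 5.52, 4.74 and 2.55. In side population cells it read 3.69 and -2.84. Side population cells were below cardiomyocytes by 6.70 ± 1.72 (limma adjusted p = 0.0395), which became -3.43 (adjusted p = 0.189) without side population replicate 2. The call was also lost without any 1 of 8 further arrays, namely marrow c-kit replicates 1 and 2, the MSC arrays, heart Sca1 replicate 2 and both cardiomyocyte arrays. Plxna2 was higher in heart than in marrow by 1.62 ± 0.42 (limma adjusted p = 0.0129), lost on the deposited values (1.13, adjusted p = 0.192). Plxna3 was higher in heart Sca1 cells, which read between -1.09 and 0.35, than in heart c-kit cells (-6.16, -5.10 and -3.71), where the first 2 values were at the fill value. That call (limma adjusted p = 0.0326) was lost without any 1 of 5 arrays, namely heart c-kit replicates 1 and 2 and the Sca1 arrays (adjusted p up to 0.102).

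The neuropilins, semaphorin and VEGF coreceptors outside the 68 members, completed the picture of the receptors. Nrp1 read between 4.40 and 7.38 in every group except marrow c-kit cells (-0.05, 0.75 and -2.19), and heart exceeded marrow by 3.92 ± 0.43 (limma adjusted p = 1.77e-05). Nrp2 was high in cardiomyocytes (6.53 and 7.52), MSC (6.79, 7.01 and 6.47) and heart c-kit cells (5.80, 6.60 and 6.35). It was low in side population cells (1.41 and 1.45), which lay below cardiomyocytes by 5.60 ± 0.75 (limma adjusted p = 0.00116).

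Ephrins are membrane-bound ligands of the Eph receptor kinases. Efnb2, the ephrin of arterial endothelium, read 6.30 and 6.45 in cardiomyocytes, 5.50, 6.79 and 5.72 in heart c-kit cells and 5.02, 4.52 and 4.57 in MSC. Heart Sca1 cells (3.07, 1.15 and 4.24) and side population cells (2.77 and 3.45) were lower, and marrow c-kit cells (-0.31, -1.81 and -0.90) lowest, with no overlap with any other group. Heart c-kit exceeded marrow c-kit cells by 7.01 ± 0.72 (limma adjusted p = 1.93e-05), and marrow c-kit cells lay below MSC by 5.71 ± 0.72 (adjusted p = 0.000127), both under every alternative. The MSC arrays combined these Efnb2 levels with an endothelial marker mean of -0.81 to -0.28. Heart c-kit exceeded heart Sca1 cells by 3.19 ± 0.72 (limma adjusted p = 0.0118), a call lost without heart Sca1 replicate 2 (adjusted p = 0.0513). It was also lost on the deposited values, with array weights and when only these groups were fitted. The deficit of side population cells against cardiomyocytes, -3.26 ± 0.89 (limma adjusted p = 0.0488), was lost without any 1 of 11 arrays (adjusted p up to 0.158), that is any but the heart c-kit arrays and heart Sca1 replicates 2 and 3.

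Efna1, a cytokine-inducible ephrin of endothelium, was highest in heart c-kit cells (4.19, 4.51 and 4.99) and low in marrow c-kit cells (-0.52, -2.36 and -1.13), a difference of 5.90 ± 0.74 (limma adjusted p = 0.000102) that held under every alternative. Its excess over heart Sca1 cells, 2.44 ± 0.74 (limma adjusted p = 0.0478), was lost without any 1 of 10 arrays, that is any but marrow c-kit replicate 2, heart Sca1 replicate 3, the side population arrays and the cardiomyocyte arrays (adjusted p up to 0.165). Efna5 was highest in heart Sca1 cells (4.80, 5.02 and 4.57), and heart c-kit cells (1.29, -0.22 and -5.41, the last at the fill value) lay 6.24 ± 1.22 below them (limma adjusted p = 0.00478). A second Efna5 probe gave a difference in the same direction. Efnb1 was highest in MSC (4.56, 3.51 and 4.44), above heart Sca1 cells (0.38, 0.87 and 2.09). Heart Sca1 minus MSC was -3.06 ± 0.64 (limma adjusted p = 0.00663) under every alternative. Efna3 was near the floor, and its heart minus marrow difference of -1.41 ± 0.47 (limma adjusted p = 0.0471) was lost without any 1 of 12 arrays, that is any but MSC replicate 3, heart c-kit replicate 3, heart Sca1 replicate 1 and side population replicate 1 (adjusted p up to 0.143).

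Among EphB receptors, Ephb4, the receptor of Efnb2 and a venous marker, was high in all heart groups, with means of 6.79 to 7.88, and lower in marrow, at 5.26 in c-kit cells and 6.08 in MSC. Heart exceeded marrow by 1.68 ± 0.39 (limma adjusted p = 0.0061) under every alternative. Its excess in heart over marrow c-kit cells, 2.03 ± 0.60 (limma adjusted p = 0.0449), had overlapping arrays and was lost without any 1 of 12 arrays, that is any but marrow c-kit replicate 1, heart c-kit replicate 3 and the side population arrays (adjusted p up to 0.182). Ephb3 was highest in heart Sca1 cells (7.53, 7.03 and 7.21) and lowest in marrow c-kit cells (-1.11, 0.29 and 0.34). Heart c-kit cells spread widely (5.80, 0.54 and 4.42). Marrow c-kit cells lay below MSC by 5.52 ± 1.02 (limma adjusted p = 0.00253) under every alternative.

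Ephb3 also differed between heart c-kit and Sca1 cells (-3.67 ± 1.02, limma adjusted p = 0.0324), which became -2.14 (adjusted p = 0.0688) without heart c-kit replicate 2 and was lost without any Sca1 array (adjusted p up to 0.0975). The difference between heart and marrow c-kit cells (3.75 ± 1.02, limma adjusted p = 0.0283) was lost without any marrow c-kit array or heart c-kit replicates 1 or 3 (adjusted p up to 0.108). Ephb1, Ephb2 and Ephb6 were not called.

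Of the EphA receptors 3 of 9 were called by the F-test, a share near the 31.9% of all genes. Epha3, known from mesenchymal and cardiac cushion cells, read 2.12 and 2.90 in side population cells, 0.79, 0.85 and 0.78 in heart Sca1 cells and 1.35, 1.28 and 1.07 in MSC. Cardiomyocytes (-1.80 and -1.73), heart c-kit cells (-0.58, -2.35 and -1.40) and marrow c-kit cells (-1.28, -2.26 and -2.89) were lower. Side population cells exceeded cardiomyocytes by 4.27 ± 0.70 (limma adjusted p = 0.00408), a call kept without each single array and lost (adjusted p = 0.238) when only these groups were fitted. Heart c-kit cells lay 2.25 ± 0.57 below heart Sca1 cells (limma adjusted p = 0.021), lost without heart c-kit replicate 2 or any Sca1 array (adjusted p up to 0.0704).

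Epha4, a receptor for both ephrin classes, was higher in heart Sca1 cells (1.81, 2.84 and 2.06) and cardiomyocytes (1.22 and 3.24) than in heart c-kit cells (-1.59, -0.12 and -1.64). Heart c-kit minus heart Sca1 was -3.36 ± 0.73 (limma adjusted p = 0.00962), under every alternative. Heart c-kit minus cardiomyocytes was -3.34 ± 0.82 (adjusted p = 0.0385), a call lost without any 1 of 9 arrays: marrow c-kit replicates 2 and 3, MSC replicate 1, heart c-kit replicates 1 and 3, the Sca1 arrays or cardiomyocyte replicate 2 (adjusted p up to 0.353). The Epha4 call against cardiomyocytes was also lost with medians aligned, on the deposited values, with array weights and when only the compared groups were fitted. Epha7 was higher in heart Sca1 cells (-0.87, 0.81 and -0.04) than in MSC (-3.21, -6.08 and -5.50, the latter 2 at the fill value) by 4.90 ± 1.01 (limma adjusted p = 0.00607). Its second probe gave 1.02 for the same difference. Epha2 was called between marrow groups, with marrow c-kit minus MSC at -4.64 ± 1.29 (limma adjusted p = 0.0317) and 2 marrow c-kit arrays at the fill value. That call was lost without marrow c-kit replicates 1 or 2 or any MSC array (adjusted p up to 0.121). Epha1 had group means of 0.29 to 1.98 and was not called.

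The progenitor groups were also compared with the cardiomyocyte arrays. Besides cardiomyocyte markers, these carried endothelial, fibroblast, and smooth muscle and pericyte markers, as given above. The part of such other cells in the differences from heart c-kit cells was not tested. Heart c-kit cells had 3 members called, or 4.4% of members against 3.6% of all genes, a share near the background. None was higher, where 0.999% of all genes were called, and 3 were lower (Ntn4, Sema3g and Epha4), where 2.6% were. Leaving out cardiomyocyte replicate 2 left 1. Side population cells had 6 called (8.8%, against 5.2% of all genes), with Epha3 higher, where 1.91% of all genes were called, and Robo4, Plxnd1, Sema3g, Sema6b and Efnb2 lower, where 3.29% were. Endothelial markers averaged 1.08 and 1.34 on the side population arrays and 6.65 and 7.06 on the cardiomyocyte arrays, and their part in these differences was not tested. Every marker of that list had the lower mean in side population cells, but Pecam1 overlapped (4.23 and 5.32 against 4.89 and 6.78). This split depended on the scaling: with medians aligned, 10 members were called higher and 1 lower, and on the deposited values 4 higher and 2 lower. Without any 1 of 6 arrays, marrow c-kit replicates 1 and 2, MSC replicate 2, side population replicate 2 or either cardiomyocyte array, 3 members were called. Aligning medians moved the median over all genes from 0.06 to 1.34 in this comparison.

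Between heart Sca1 cells and cardiomyocytes, limma called 0 of 68 members and 0.0% of all genes, while 15 members and 2068 of all genes had an unadjusted p under 0.05. Without heart Sca1 replicate 3, the replicate with the high endothelial mean, 3 members were called, against 164 of 17710 genes (0.926%), all 3 lower in Sca1 cells: Robo4 by -8.08 (adjusted p = 0.00357), Efnb2 by -4.27 (adjusted p = 0.0243) and Ephb1 by -4.29 (adjusted p = 0.0476). Ephb1, a receptor of ephrin-B ligands, is named after its values were seen, and read 4.16 and 4.05 in cardiomyocytes and 0.13, -0.49 and 3.43 in Sca1 cells.

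Heart c-kit and heart Sca1 cells, both sorted as cardiac progenitors, differed in 19 of 68 members (27.9%, against 11.2% of all genes). Higher in heart c-kit cells were 5 (Robo4, Sema7a, Efnb2, Efna1 and Sema6b), against 3.31% of all genes called in that direction, and lower were 14, against 7.87%. The 14 included Slit2, both called netrins, Sema3c, Sema3d and Sema6c, 3 plexins, 3 EphA receptors, Ephb3 and Efna5. On the deposited values 1 was higher and 13 lower. Epha7 was lost without heart Sca1 replicate 2 (adjusted p = 0.0506), with its second probe at -0.32, and Sema6b (1.72 ± 0.48, limma adjusted p = 0.0343) without any 1 of 8 arrays: marrow c-kit replicate 2, MSC replicates 1 and 2, heart c-kit replicates 2 and 3 or the Sca1 arrays (adjusted p up to 0.111). The count was 12 without heart c-kit replicate 2, 11 without heart Sca1 replicate 1 and 9 without heart Sca1 replicate 2. Of all genes, 1614, 1197 and 1254 were then called. Fibroblast markers averaged 6.45 to 6.61 on Sca1 arrays and 1.39 to 2.47 on heart c-kit arrays. Col1a1 went the other way (means of 4.29 and 5.65), and the rest of that list was lower in heart c-kit cells. Endothelial markers differed as given above, and the part of both lists in these differences was not tested.

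Sorting for c-kit in both organs gave 16 members called between heart and marrow c-kit cells (23.5%, against 10.8% of all genes). Higher in the heart were 12, where 4.89% of all genes were called, and lower were 4 (Sema4a, Sema4b, Sema4d and Plxnc1), where 5.93% were. The 12 were Unc5b, Sema6d, Robo4, Efnb2, Robo1, Sema3c, Efna1, Sema4c, Slit1, Ephb3, Sema7a and Ephb4. With medians aligned 13 were higher and 2 lower. Endothelial markers averaged 5.23 to 6.03 on heart c-kit and 0.67 to 0.90 on marrow c-kit arrays, leukocyte markers 1.27 to 2.81 against 4.13 to 5.45, and their part in these differences was not tested.

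Heart Sca1 cells and MSC differed in 11 members (16.2%, against 10.3% of all genes). Leukocyte markers averaged 6.18 to 6.75 on MSC arrays and -0.50 to 2.64 on Sca1 arrays, fibroblast markers 1.65 to 3.08 against 6.45 to 6.61, and their part in these differences was not tested. Higher in heart Sca1 cells were 9 (Sema3d, Ntn4, Sema6c, Epha7, Sema3g, Sema6d, Epha4, Slit2 and Sema6b), against 5.3% of all genes, and lower were Efnb1 and Sema4d, against 5.01%. With medians aligned the split was 5 higher and 2 lower, and on the deposited values 5 higher and 3 lower. Of the 11, Sema3d, Ntn4, Sema6c, Epha7 and Efnb1 stayed called without each single array. Leaving out any 1 of the 6 Sca1 and MSC arrays left 5 or 6 members called, and 1148 to 1376 of all genes. The calls of Sema4d, Sema6b and Sema6d (2.72 ± 0.80, limma adjusted p = 0.0451) were lost without any of these 6 arrays, Sema6d also without either cardiomyocyte array, Epha4 without all of them but MSC replicate 3 and without marrow c-kit replicate 2, and Sema3g without any 1 of 11 arrays, that is any but MSC replicate 1, the side population arrays and the cardiomyocyte arrays (adjusted p up to 0.208).

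Both marrow groups differed from each other in 17 of 68 members (against 11.0% of all genes), 16 of them lower in marrow c-kit cells, where 7.37% of all genes were called, and Sema6b higher (3.15 ± 0.48, limma adjusted p = 0.000604), where 3.66% were. The 16 were Unc5b, Sema3c, Robo1, Plxna1, Efnb2, Ephb3, Sema4c, Epha2, Sema3e, Plxnb2, Sema6d, Efnb1, Epha3, Slit1, Slit2 and Efna1. Sema3c and Sema3e were at the fill value on all marrow c-kit arrays, so their differences are uncertain in size. The calls of Slit1, Sema3e and Efna1 were lost without single arrays of the marrow groups, Slit1 for any of the 6, Sema3e for any but MSC replicate 3 and Efna1 for any but marrow c-kit replicate 1, and Efna1 also without heart Sca1 replicate 2 (adjusted p up to 0.172).

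The heart minus marrow difference in c-kit cells and that between heart Sca1 cells and MSC were themselves compared, a test added after the data were seen. It called 14 of 68 members, against 7.46% of all genes. In 9 the difference was more positive in c-kit cells, where 3.66% of all genes were called, and in 5 it was more positive between heart Sca1 cells and MSC, where 3.8% were.

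**Figure D5:**
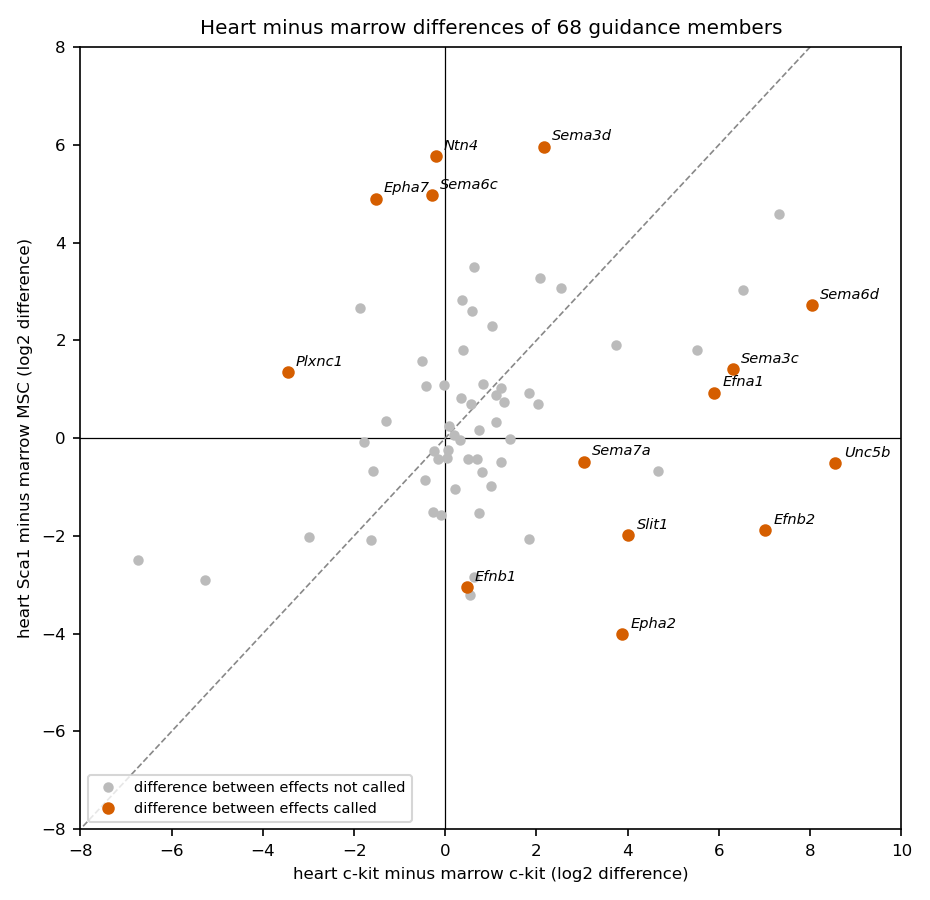
Heart minus marrow difference of each of the 68 members in c-kit cells (horizontal axis, log2) and between heart Sca1 cells and MSC (vertical axis, log2), with the diagonal of equal differences dashed. Orange points mark the 14 members whose differences themselves differed in limma, among them Unc5b, at 8.56 in c-kit cells and -0.52 between heart Sca1 cells and MSC, and Ntn4, at -0.21 and 5.76.

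Other genes of the guidance pathway, a list of 52 coreceptors, adaptors and cytoskeletal effectors of which 43 were measured, gave 21 called by the F-test (48.8%, against 31.9% of all genes). Between heart and marrow 11 of 43 were called (25.6%, near the 21.6% of all genes), 9 higher in the heart and 2 lower (Fes and Farp2). Ptk2, which encodes focal adhesion kinase, was higher in the heart by 3.18 ± 0.33 (limma adjusted p = 9.78e-06). The actin-binding Ablim1 and Ablim3 were higher by 3.92 ± 0.33 and 4.14 ± 0.34 (limma adjusted p of 1.85e-06 and 1.73e-06). Marrow c-kit cells were lower than MSC for all 11 called genes of that comparison (25.6%, against 11.0% of all genes), among them Flrt2, an Unc5 ligand, by 9.52 ± 0.69 (limma adjusted p = 1.13e-06).

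Heart c-kit and heart Sca1 cells differed in 7 of the 43 (16.3%, against 11.2% of all genes), with Fes higher and 6 lower in c-kit cells. Heart and marrow c-kit cells differed in 12 (27.9%, against 10.8%), with 10 higher in the heart and Mical1 and Tiam1 lower. Heart Sca1 cells and MSC differed in 8 (18.6%, against 10.3%), of which 6 were higher in the heart and Nrp2 and Fes lower. Against cardiomyocytes, heart c-kit cells had 1 called (2.33%, below the 3.6% of all genes), namely Ablim1, lower by 2.80 ± 0.58 (limma adjusted p = 0.0156). Side population cells had 4 (9.3%, against 5.2%), with Ngef higher and Nrp2, Farp2 and Rnd1 lower, and Sca1 cells 0 in the limma fit, where 9 of the 43 had an unadjusted p under 0.05.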

How the data were processed

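The deposited log2 values of 16 single-colour Cy5 arrays were used, 26423 probes each. Per the labels, total RNA was amplified with the WT-Ovation Pico kit. A repeated fill value took 3.38% to 13.8% of probes per array. The rule that set it, the scanner and any background correction were details not given in the sources used here. On 15 of 16 arrays the deposited log2 values had a mean within 0.001 of 0, which was read from the values. Probe names came from the platform annotation and were updated through RefSeq (GRCm38.p6): 20377 probes had a symbol, 6046 none, and 17710 genes resulted.

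All probes were quantile normalised, and limma 3.58.1 in R 4.3.3 was fitted to 6 group means over 16 arrays, with a moderated F-test and 8 comparisons. The Benjamini-Hochberg adjustment ran over all genes. The script was tested on simulated data. Named members were Robo4, all members called, and in each family those with the highest mean and the widest range of group means. Of other pathway genes, those called and the coreceptors could be named. The members and lists were chosen with earlier results of these data known. Alternatives were aligned medians, the deposited values, raised low values, probe means, a filter on low genes, other moderation, array weights, only the compared groups, a replicate block and each array left out. Added after seeing the data were leaving out the 3 arrays with the lowest medians, another probe choice, and leaving out Unc50 and Unc5cl.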

Additional observations from a re-analysis of the deposited data

Results flagged for a closer look

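The heart minus marrow difference of a gene can be taken in c-kit cells and between heart Sca1 cells and MSC, and the difference between both was tested in the same limma fit. This test was added after the data were seen. It called 14 of 68 members (20.6%), against 7.46% of all genes. These calls are not among those set against alternatives below.

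In 9 members the difference was more positive in c-kit cells. Unc5b differed by 8.56 in c-kit cells and -0.52 between heart Sca1 cells and MSC, 9.07 apart (SE 0.77, limma adjusted p = 2.15e-05). Efnb2 differed by 7.01 and -1.89, 8.90 apart (SE 1.02, adjusted p = 0.000155). For both, marrow c-kit cells were the low group and MSC were not low. Epha2, a receptor of Efna1, differed by 3.87 and -4.01, 7.89 apart (adjusted p = 0.0173). These Epha2 differences rest on low values, with 2 marrow c-kit arrays and 1 heart Sca1 array at the fill value. Slit1, near the floor, was 5.99 apart (adjusted p = 0.0121), Sema6d 5.32 (adjusted p = 0.0109) and Efna1 4.97 (adjusted p = 0.00968). Sema3c was 4.90 apart with its marrow c-kit arrays at the fill value (adjusted p = 0.0409). Sema7a and Efnb1 were 3.53 and 3.52 apart (adjusted p of 0.0244 and 0.0292).

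In 5 members the difference was more positive between heart Sca1 cells and MSC. Epha7 was -6.43 apart (limma adjusted p = 0.0139), with 2 MSC arrays and 1 heart c-kit array at the fill value. Ntn4 was -5.97 apart (adjusted p = 0.0032), Sema6c -5.27 (adjusted p = 0.00448) and Sema3d -3.80 (adjusted p = 0.0399). Plxnc1, at -3.46 in c-kit cells and 1.34 in the other pair, was -4.80 apart (adjusted p = 0.0101). Ntn4 differed by -0.21 between the c-kit groups and by 5.76 between heart Sca1 cells and MSC.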

How the results depend on the processing

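Of 97 named calls set against their alternatives in 2575 comparisons, 2209 were kept, 366 lost and 0 reversed. With medians aligned, the members called were 1 for heart c-kit against cardiomyocytes, 11 for side population against cardiomyocytes and 7 for heart Sca1 against MSC. On the deposited values heart c-kit against cardiomyocytes gave 1, with 223 of all genes called. Against cardiomyocytes, heart Sca1 and side population cells gave 4 and 10 once values under the 30th percentile of an array were lifted to it. Of all genes, 324 and 1493 were then called. Array weights gave 1 and 2 for heart c-kit and side population cells against cardiomyocytes and 12 for heart c-kit against Sca1 cells. They gave 25 for heart Sca1 cells against MSC and 28 between the marrow groups. In the same order, they called 242, 128, 1397, 4267 and 4367 of all genes. Fitting only the groups compared gave 0, 0, 9, 22 and 26 in that order, with the spread estimated from those arrays alone. This fit called 3, 0, 786, 3866 and 4050 of all genes. It was not run for the F-test and for heart against marrow. The cause of these changes was not tested.

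Leaving out single arrays gave 27 to 37 members for the F-test, 22 to 28 for heart against marrow, 1 to 4 for heart c-kit, 0 to 3 for heart Sca1 and 3 to 9 for side population cells against cardiomyocytes, 9 to 20 for heart c-kit against Sca1 cells, 13 to 17 between c-kit groups, 5 to 12 for heart Sca1 cells against MSC and 13 to 20 between the marrow groups.

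With the replicate number as a block, side population against cardiomyocytes gave 3 and the F-test 31, with 766 and 5179 of all genes called. Over 36 same-numbered pairs the median correlation of deviations was 0.00768 and 4 exceeded 0.1. These 4 lay among heart c-kit, marrow c-kit and cardiomyocyte arrays. The highest was 0.399, between replicate 1 of heart c-kit cells and of cardiomyocytes. Deviations from means of 2 or 3 arrays depend on each other, so these values cannot settle whether the numbers pair samples. Values near the fill value limit what can be said of low members such as Slit1, Robo3, Sema3e, Efna3 and Epha2.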
